A study of Mus musculus with 16 samples.

Results

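The acute-phase proteins described here are serum amyloid A1, A2 and A3 (Saa1, Saa2, Saa3), lipocalin 2 (Lcn2), the serpins Serpina3m and Serpina3n, Wfdc21, haptoglobin (Hp), orosomucoid 1 (Orm1) and lipopolysaccharide binding protein (Lbp). These 10 genes were taken by symbol from the 54532 genes of the deposited tables, and all 10 were found. They were selected on these same libraries, because Saa3, Wfdc21 and Serpina3m were among the genes with the largest rise in the calcification group, the 5/6 Nx-HPi-Lp mice. Their values in comparisons that hold that group are therefore a description and carry no test.

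RNA from the aortas of 16 mice was sequenced, 1 library per mouse and 4 mice per group, to ask how dietary phosphate (Pi) and protein act on the artery in CKD. All were male C57BL/6J mice of 12 weeks at surgery, with no transgene, and all were fed their diet for 30 days. Sham mice kept their kidneys and were fed 2% phosphorus with 2.5% protein (HPi-Lp). The other mice lost most of their kidney mass in a 2-step 5/6 nephrectomy (5/6 Nx) and were fed the same HPi-Lp diet (5/6 Nx-HPi-Lp), 2% phosphorus with 18% protein (5/6 Nx-HPi-Hp) or 0.3% phosphorus with 2.5% protein (5/6 Nx-LPi-Lp). Sham and 5/6 Nx-HPi-Lp mice thus differed in surgery alone, whereas each of the other groups differed from Sham in both surgery and diet, which cannot be told apart there.

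Acute-phase proteins are secreted into plasma when infection or injury raises IL-1, IL-6 and related cytokines. The liver is the main source, where NF-κB, STAT3 and C/EBP factors switch on their genes, but fat, macrophages, fibroblasts and epithelia also transcribe several of them, Saa3 and Lcn2 in particular. Some carry lipid or small ligands (the serum amyloid A proteins on HDL, lipocalin 2 with iron-loaded siderophores, orosomucoid with drugs and steroids), haptoglobin clears free hemoglobin, the serpins inhibit proteases, and Lbp hands endotoxin to CD14.

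Upstream sequence in the RefSeq table of mouse promoters (GRCm38.p6) was matched for 5 of the 10 members, Saa3, Lcn2, Serpina3n, Saa1 and Saa2. Serpina3m, Wfdc21, Hp, Orm1 and Lbp had no entry in it. The 250 bases before each RefSeq start were searched on both strands for NF-κB-like letters (GGGNNNTTCC), C/EBP-like letters (TTNNGCAA) and STAT-like letters (TTCNNNGAA), and matches are in capitals below. The sequences are shown because these 5 members had an entry, and because Saa1 and Saa2 are close copies. The RefSeq start of Lcn2 lies 513 bases inside the deposited gene model, so its 250 bases fall within that model.
Saa3: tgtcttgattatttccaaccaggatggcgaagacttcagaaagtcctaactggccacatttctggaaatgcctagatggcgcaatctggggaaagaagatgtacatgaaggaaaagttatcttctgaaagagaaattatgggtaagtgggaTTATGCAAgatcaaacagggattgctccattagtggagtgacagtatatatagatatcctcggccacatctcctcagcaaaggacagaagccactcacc
Lcn2: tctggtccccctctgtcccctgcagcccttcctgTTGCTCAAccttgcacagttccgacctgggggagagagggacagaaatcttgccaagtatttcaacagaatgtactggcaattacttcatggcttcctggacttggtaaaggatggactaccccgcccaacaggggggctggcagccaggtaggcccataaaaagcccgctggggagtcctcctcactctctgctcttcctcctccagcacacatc
Saa1: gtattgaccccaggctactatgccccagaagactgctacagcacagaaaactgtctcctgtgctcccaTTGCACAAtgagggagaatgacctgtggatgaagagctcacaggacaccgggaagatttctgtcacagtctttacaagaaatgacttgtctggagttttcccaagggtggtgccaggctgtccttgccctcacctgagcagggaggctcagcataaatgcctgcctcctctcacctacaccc
Saa2: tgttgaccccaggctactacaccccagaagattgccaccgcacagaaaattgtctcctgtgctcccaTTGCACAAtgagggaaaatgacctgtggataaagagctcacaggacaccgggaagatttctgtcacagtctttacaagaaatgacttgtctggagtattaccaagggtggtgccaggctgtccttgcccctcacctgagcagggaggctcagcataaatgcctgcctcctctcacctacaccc
Serpina3n: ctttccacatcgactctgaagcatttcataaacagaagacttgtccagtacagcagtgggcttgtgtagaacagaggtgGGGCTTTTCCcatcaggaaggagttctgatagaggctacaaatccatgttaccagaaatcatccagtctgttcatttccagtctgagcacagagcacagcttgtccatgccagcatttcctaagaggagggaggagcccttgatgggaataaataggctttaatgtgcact
The Saa3 sequence is chr7:46715677-46715926 on the minus strand, that of Lcn2 is chr2:32387740-32387989 (minus), and that of Serpina3n is chr12:104406458-104406707 (plus). Those of Saa1 and Saa2 are chr7:46742981-46743230 (minus) and chr7:46751583-46751832 (plus). The C/EBP-like letters were in 4 of the 5 sequences, those of Saa3, Lcn2, Saa1 and Saa2, and in 9.56% of all 32851 promoters of the table. The NF-κB-like letters were in 1 of the 5, Serpina3n, and in 4.65% of all promoters, and the STAT-like letters were in none of the 5 and in 7.02% of all. Another spelling of the C/EBP letters, TTNNGNAAT, was in Saa1, Saa2 and Serpina3n, and in 10.2% of all promoters. In Saa1 and Saa2 it overlapped the match shown. These matches describe letters and not bound sites.

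Saa1 and Saa2 were 94.8% identical over these upstream bases and 95.1% identical over their coding sequences of 366 bases each, and 14.8% of the 50-base windows of the Saa1 coding sequence occurred unchanged in Saa2. Saa3 was more distant, with 75.7% coding identity to Saa1 and 74.7% to Saa2. Serpina3m and Serpina3n shared 85.2% of their coding sequence. How the authors treated reads that match several genes is not given in the sources used here, so the split of counts between Saa1 and Saa2, between the Serpina3 genes, and between Orm1 and its paralogs is uncertain.

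The gene models of the deposited tables (mm10) place the 3 serum amyloid genes close together, Saa3 at chr7:46711998-46715700, Saa1 at chr7:46740497-46742980 and Saa2 at chr7:46751790-46754313. Serpina3m (chr12:104338486-104394257) and Serpina3n (chr12:104406729-104414329) lie next to each other in the same way. Lcn2 is at chr2:32384633-32388252, Lbp at chr2:158306493-158332852, Wfdc21 at chr11:83746940-83752642, Hp at chr8:109575128-109579172 and Orm1 at chr4:63344560-63348163. All 10 are annotated as protein coding.

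Library totals were 20795568 to 24204348 counts in Sham, 15013203 to 57276915 in 5/6 Nx-HPi-Lp, 13659525 to 18186113 in 5/6 Nx-HPi-Hp and 13738098 to 21547424 in 5/6 Nx-LPi-Lp mice. Among the 5/6 Nx-HPi-Lp mice, replicates 2 and 3 were by far the deepest. Levels are given as CPM, a gene's counts scaled to a common library size after TMM, and as FPKM, which are also scaled to gene length, where genes are compared with each other. The defining smooth muscle markers of the aorta (8 genes, Myh11 among them) were abundant, with summed levels of 21977 to 26123 CPM in Sham, 6626 to 23544 in 5/6 Nx-HPi-Hp and 7675 to 17881 in 5/6 Nx-LPi-Lp mice, but 2263 to 5117 in 5/6 Nx-HPi-Lp mice. Mitochondrially encoded genes took 5.19% ± 1.01 of the counts in Sham and 23.5% ± 3.36 in 5/6 Nx-HPi-Lp, 20.0% ± 8.78 in 5/6 Nx-HPi-Hp and 17.4% ± 2.83 in 5/6 Nx-LPi-Lp libraries (mean ± SD, n = 4). In bulk aorta, a change in the number of cells that make a transcript and a change in the amount each cell makes cannot be told apart.

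Saa3 was nearly silent outside the calcification group. Saa3 encodes the serum amyloid A that mouse macrophages and adipocytes make locally. It was at 0.732, 2.14, 2.80 and 0.751 CPM in the Sham mice. In the calcification group it was at 4.16, 231, 159 and 39.3 CPM. All 4 values lay above every other library, but they spanned a 55.6-fold range, and replicate 1, with 66 counts, sat far below the other three. The 5/6 Nx-HPi-Hp libraries held 0.430, 0, 0 and 0.383 CPM and the 5/6 Nx-LPi-Lp libraries 0.0542, 0, 0.437 and 0.190 CPM, at 0 to 8 counts each. Both of these groups lay below every Sham library. The fitted log2 fold change of the calcification group was 6.15 (SE 1.11) against Sham, 8.84 (SE 1.35) against 5/6 Nx-HPi-Hp and 9.38 (SE 1.42) against 5/6 Nx-LPi-Lp mice.

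Saa1 and Saa2, the liver-type serum amyloids, were rare transcripts in aorta and were removed by the low-count filter in every comparison. Saa2 was at 0 counts in all 12 libraries outside the calcification group, and at 0, 4.75, 3.60 and 1.42 CPM within it. Set against a floor of 3 counts per library, its mean was at least 19.5-fold higher than in Sham, at least 12.3-fold higher than in 5/6 Nx-HPi-Hp and at least 13.7-fold higher than in 5/6 Nx-LPi-Lp mice. Replicate 1 had no Saa2 count, so the groups overlapped there. Saa1 was at 0.315, 1.52, 1.97 and 0.258 CPM in 5/6 Nx-HPi-Lp mice. Outside that group it had 2 counts in 1 Sham library, 4 in 1 5/6 Nx-LPi-Lp library and 0 in the other 10, so its lowest calcification value, also 4 counts, stood next to the highest of the other values, 0.251 CPM.

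Lcn2, the siderophore-binding lipocalin also known as NGAL, was at 0.963, 1.79, 1.35 and 0.553 CPM in Sham mice. It was at 11.8, 160.5, 142 and 102 CPM in 5/6 Nx-HPi-Lp mice. No other library exceeded 5.32 CPM, the value of 5/6 Nx-HPi-Hp replicate 1, so replicate 1 of the calcification group was again lowest of its group yet outside the range of the rest. The remaining 5/6 Nx-HPi-Hp libraries were at 0.817, 2.02 and 1.09 CPM, and the 5/6 Nx-LPi-Lp libraries at 1.14, 2.51, 1.82 and 0.952 CPM. The log2 fold change was 6.54 (SE 0.79) against Sham, 5.47 (SE 0.84) against 5/6 Nx-HPi-Hp and 6.05 (SE 0.78) against 5/6 Nx-LPi-Lp mice.

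Wfdc21, a small secreted protein of the whey acidic protein family, had the largest fitted difference from Sham among the members, 8.06 on the log2 scale (SE 0.88). In Sham it was at 0.0385, 0.0437, 0.180 and 0 CPM, or 0 to 4 counts. In 5/6 Nx-HPi-Lp mice it was at 3.28, 21.0, 14.7 and 30.1 CPM, with the highest value in replicate 4, a shallow library. Of the 5/6 Nx-HPi-Hp libraries, 2 had 0 counts and 2 had 0.376 and 0.375 CPM, and the log2 fold change of the calcification group over them was 6.47 (SE 0.94). All 4 5/6 Nx-LPi-Lp libraries were at 0, so the calcification group was at least 97.0-fold higher than the floor of 3 counts per library.

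**Figure D1:**
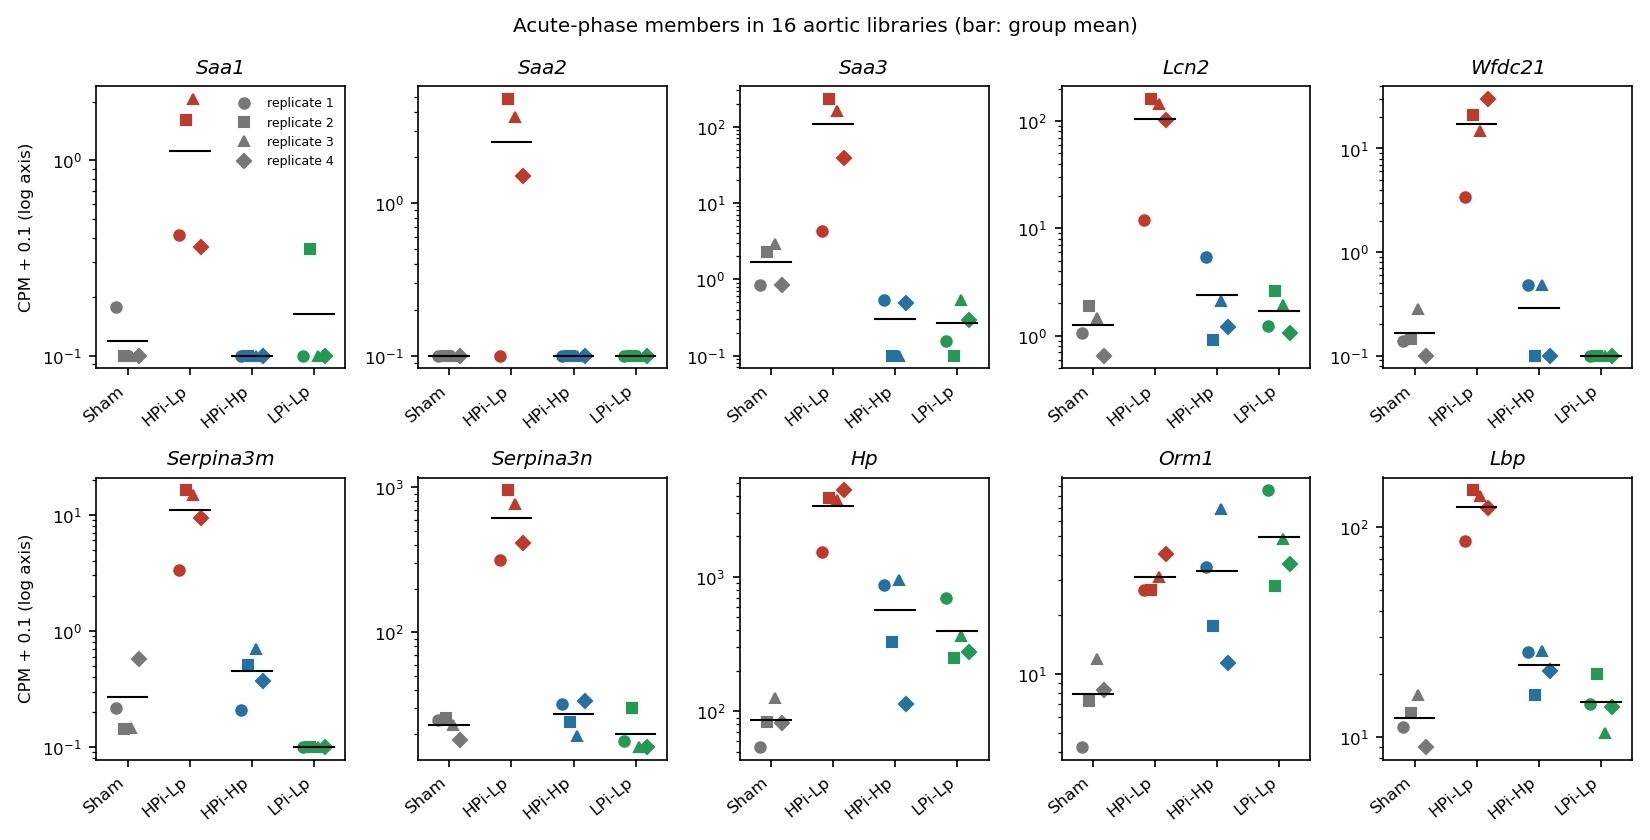
Each panel plots 1 member as CPM + 0.1 on a log axis in the 16 aortic libraries, with point shape marking the replicate number within each group and a bar at the group mean. Saa3, Lcn2, Wfdc21, Serpina3m, Serpina3n, Hp and Lbp are above all 12 other libraries in every 5/6 Nx-HPi-Lp mouse, whereas Orm1 (26.5 to 40.4 CPM) lies within the range of the other nephrectomized mice.

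The serpins had very different levels in Sham aorta and were both far higher in the calcification group. Serpina3n, the mouse protease inhibitor closest in use to human α1-antichymotrypsin, was readily detected in Sham at 24.9, 25.4, 23.1 and 18.1 CPM. It was at 315, 954, 769 and 412 CPM in 5/6 Nx-HPi-Lp mice, with no overlap with any other library. In the other nephrectomized mice it was near the Sham level, at 31.9, 24.0, 19.0 and 33.7 CPM in 5/6 Nx-HPi-Hp and 17.6, 29.9, 16.1 and 16.1 CPM in 5/6 Nx-LPi-Lp mice. For Serpina3n the log2 fold change was 4.79 (SE 0.36) against Sham, 4.50 (SE 0.40) against 5/6 Nx-HPi-Hp and 4.95 (SE 0.43) against 5/6 Nx-LPi-Lp mice. Its neighbor Serpina3m was at 0.116, 0.0437, 0.0451 and 0.474 CPM in Sham and at 3.22, 16.1, 14.7 and 9.35 CPM in 5/6 Nx-HPi-Lp mice. Serpina3m in 5/6 Nx-HPi-Hp mice was at 0.108, 0.408, 0.600 and 0.273 CPM. All 5/6 Nx-LPi-Lp libraries held 0 counts of it, against which the calcification group was at least 60.9-fold higher. The log2 fold change of Serpina3m was 5.98 (SE 0.75) against Sham and 5.00 (SE 0.65) against 5/6 Nx-HPi-Hp mice.

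Hp, the hemoglobin scavenger haptoglobin, was the most abundant member per length in every group. It was at 54.2, 82.9, 125 and 82.3 CPM in Sham mice. In 5/6 Nx-HPi-Lp mice it was at 1531, 3828, 3739 and 4396 CPM. The 5/6 Nx-HPi-Hp mice had 871, 329, 947 and 114 CPM, and it was at 691, 251, 364 and 277 CPM in 5/6 Nx-LPi-Lp mice. The order of group means was 5/6 Nx-HPi-Lp, 5/6 Nx-HPi-Hp, 5/6 Nx-LPi-Lp and Sham, and the middle groups overlapped each other over most of their range. The log2 fold change of the calcification group was 5.34 (SE 0.39) against Sham, 2.58 (SE 0.62) against 5/6 Nx-HPi-Hp and 3.09 (SE 0.43) against 5/6 Nx-LPi-Lp mice. Per length, Hp reached a mean of 2126 ± 785 FPKM in the calcification group (SD, n = 4), rank 12 of 22046 protein-coding genes, from 51.3 ± 17.2 FPKM and rank 818 in Sham.

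Lbp, the endotoxin carrier, varied least among the members that stood above all other libraries. It was at 11.1, 13.0, 15.8 and 8.90 CPM in Sham and at 85.1, 149, 140.0 and 122 CPM in 5/6 Nx-HPi-Lp mice. Values in 5/6 Nx-HPi-Hp mice were 25.4, 15.8, 25.6 and 20.6 CPM, and those in 5/6 Nx-LPi-Lp mice were 14.3, 19.8, 10.4 and 13.9 CPM. The calcification libraries stood apart from all others, and the log2 fold change was 3.40 (SE 0.22) against Sham, 2.51 (SE 0.22) against 5/6 Nx-HPi-Hp and 3.09 (SE 0.24) against 5/6 Nx-LPi-Lp mice.

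Orm1, a plasma carrier protein of the lipocalin family, did not follow the other members. It was at 4.12, 7.17, 11.8 and 8.18 CPM in Sham and at 26.5, 26.6, 31.0 and 40.4 CPM in 5/6 Nx-HPi-Lp mice. Its values in 5/6 Nx-HPi-Hp mice were 34.7, 17.3, 69.1 and 11.3 CPM, and those in 5/6 Nx-LPi-Lp mice were 85.8, 27.7, 48.6 and 36.0 CPM. The highest values were thus in 5/6 Nx-LPi-Lp replicate 1 and 5/6 Nx-HPi-Hp replicate 3, and all 3 nephrectomized groups overlapped. The log2 fold change of the calcification group was 2.05 (SE 0.28) against Sham, -0.09 (SE 0.47) against 5/6 Nx-HPi-Hp and -0.67 (SE 0.32) against 5/6 Nx-LPi-Lp mice.

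Compared per length within the calcification group, Hp was followed by Serpina3n at 301 ± 149 FPKM. Saa3 (42.3 ± 41.3), Orm1 (40.7 ± 8.14), Wfdc21 (40.2 ± 26.1) and Lcn2 (40.2 ± 25.7) had means within 1 SD of each other and could not be ordered. Lbp was at 26.0 ± 5.90, Serpina3m at 6.39 ± 3.46, Saa2 at 0.983 ± 0.865 and Saa1 at 0.415 ± 0.350 FPKM (mean ± SD, n = 4). The liver-type serum amyloids thus had far lower means than Saa3.

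Of the 17381 genes that passed the low-count filter over all 16 libraries, 4.83% had every 5/6 Nx-HPi-Lp library above all 12 others. Among the 8 members in that set, this held for 7, with Orm1 as the exception; the members were chosen on this contrast, and nothing is read from the count. Against Sham, 15.0% of 16513 genes tested were called higher and 7.18% lower in the calcification group. Against 5/6 Nx-HPi-Hp mice these shares were 5.01% and 3.11%, and against 5/6 Nx-LPi-Lp mice 7.90% and 3.98%. Calls were made by edgeR where the adjusted p did not exceed 0.05 and the change was 2-fold or more. The median log2 fold change of the 8 members that passed the filter was 5.66 against Sham, 4.75 against 5/6 Nx-HPi-Hp and 5.50 against 5/6 Nx-LPi-Lp mice (5.44 with the genes at 0 set to their bounds), and the medians over all genes tested were -0.0027, 0.0098 and -0.016.

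The mice of the calcification group differed among themselves. Replicate 1 was the lowest of the 4 5/6 Nx-HPi-Lp libraries for 9 of the 10 members, Saa1 being the exception. Replicate 2 was highest for 6 members, replicate 4 for 3 (Wfdc21, Hp and Orm1) and replicate 3 for 1 (Saa1). The range from lowest to highest mouse was 13.6-fold for Lcn2, 9.17-fold for Wfdc21, 5.01-fold for Serpina3m, 3.03-fold for Serpina3n and 2.87-fold for Hp, against 1.75-fold for Lbp and 1.52-fold for Orm1. Replicates 1 and 4 had similar totals, and Saa3 stood at 66 counts in the first and 609 in the second of them.

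**Figure D2:**
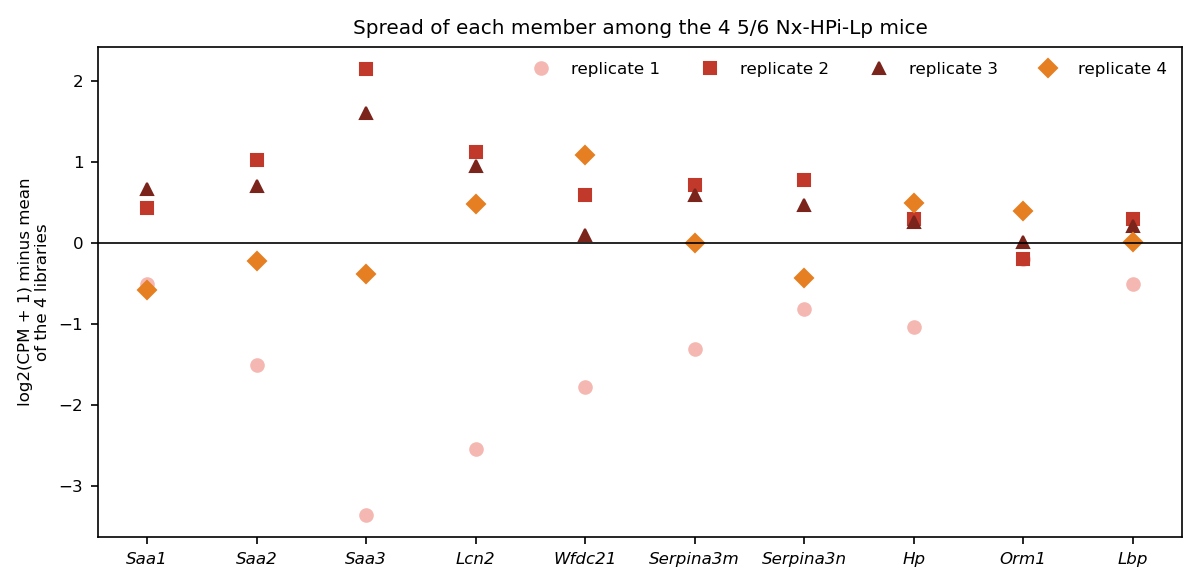
For each member, points give log2(CPM + 1) of the 4 5/6 Nx-HPi-Lp libraries minus their mean, with 1 symbol per mouse. Replicate 1 (pale circles) is lowest for every member except Saa1, and the spread narrows from Saa3 (55.6-fold) to Orm1 (1.52-fold).

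After each group mean was subtracted, the genes whose log2(CPM + 1) was most like that of Saa3 across the 16 libraries were Cep55 (Pearson r = 0.966), Il6 (0.950), Fcgr2b (0.949), Ccl7 (0.935) and H2-DMb1 (0.928), out of 13586 protein-coding candidates. The libraries share the 4 mice of the calcification group with their wide spread. Without the 2 libraries in which each of these genes was furthest from its own median, the values were 0.847, 0.844, 0.786, 0.778 and 0.629. The nearest gene to Saa2 was also Il6 (r = 0.979), which encodes interleukin 6. Saa2 had no count outside the calcification group, so this r rests on the spread among those 4 mice. Spearman's rho with Il6 was 0.761 for Saa2 and 0.650 for Saa3. Nearest to Lcn2 was C6 (0.947), to Serpina3m Tgm1 (0.943), to Serpina3n Gpr65 (0.915), to Wfdc21 Zfp984 (0.943), to Hp Ppa1 (0.976), to Lbp Palb2 (0.903) and to Saa1 Tnfsf11 (0.907). Nearest to Orm1 was Mrap (0.966), an accessory protein of the melanocortin receptor that adipocytes express. Among the members, Saa2 and Saa3 were closest to each other (0.963), Hp was closest to Orm1 (0.886), and Serpina3n and Orm1 were the least alike (-0.38). These correlations are descriptions over 16 libraries.

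Comparisons without the 5/6 Nx-HPi-Lp libraries were not those that chose the members, and there the members were tested. Their libraries had been the references for that choice, so a low level in one of them is not independent of it. Relative to Sham mice, 5/6 Nx-HPi-Hp mice had 3 called members. Hp and Orm1 were upregulated and Saa3 was downregulated, 2 and 1 of the 6 members tested; over all 15882 genes tested, 9.41% were called higher and 2.75% lower. Hp rose by 2.80 on the log2 scale (SE 0.59, adjusted p = 0.0111), although replicate 4 at 114 CPM overlapped the Sham range. Orm1 rose by 2.17 (SE 0.54, adjusted p = 0.0173), again with replicate 4 within the Sham range. Saa3 fell by 2.73 on the log2 scale (SE 0.84, adjusted p = 0.0348) without overlap of the groups, but at 0 to 8 against 19 to 62 counts. This Saa3 call was lost with the 16 libraries in one fit (adjusted p = 0.119), with a replicate block (0.105) and without Sham replicate 2 (0.0908) or 3 (0.0950) or 5/6 Nx-HPi-Hp replicate 2 (0.0647) or 3 (0.0639). The Orm1 call was lost without Sham replicate 2 (0.0545).

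Lbp, Lcn2 and Serpina3n were tested and not called there. The Lbp difference of 0.92 (SE 0.21, adjusted p = 0.0144) stayed under the 2-fold threshold. It passed without Sham replicate 3 (1.05, adjusted p = 0.0300) or 5/6 Nx-HPi-Hp replicate 2 (1.04, adjusted p = 0.0208). With no fold-change threshold 4 members were called, beside 4990 of all 15882 genes tested. Lcn2 differed by 1.09 (SE 0.61, adjusted p = 0.186) and Serpina3n by 0.32 (SE 0.18, adjusted p = 0.202). Saa1, Saa2, Serpina3m and Wfdc21 had too few counts to be tested, at 0 to 8 per library in these mice.

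The 5/6 Nx-LPi-Lp mice also gave calls for Hp, Orm1 and Saa3 against Sham. Orm1 rose by 2.76 on the log2 scale (SE 0.40, adjusted p = 0.00325) and Hp by 2.29 (SE 0.36, adjusted p = 0.00344), in both cases with all 4 libraries above all Sham libraries. Saa3 fell by 3.17 (SE 0.79, adjusted p = 0.0147), from 19 to 62 counts to 0 to 6, and this call was lost in the fit of all 16 libraries (adjusted p = 0.107). These were 2 of 6 tested members higher and 1 of 6 lower, beside 8.79% and 2.08% of all 16071 genes tested. Both comparisons used the same Sham libraries and are not independent of each other. Lcn2 (0.55, SE 0.44), Lbp (0.36, SE 0.23) and Serpina3n (-0.10, SE 0.22) did not pass, with adjusted p of 0.366, 0.256 and 0.751.

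**Figure D3:**
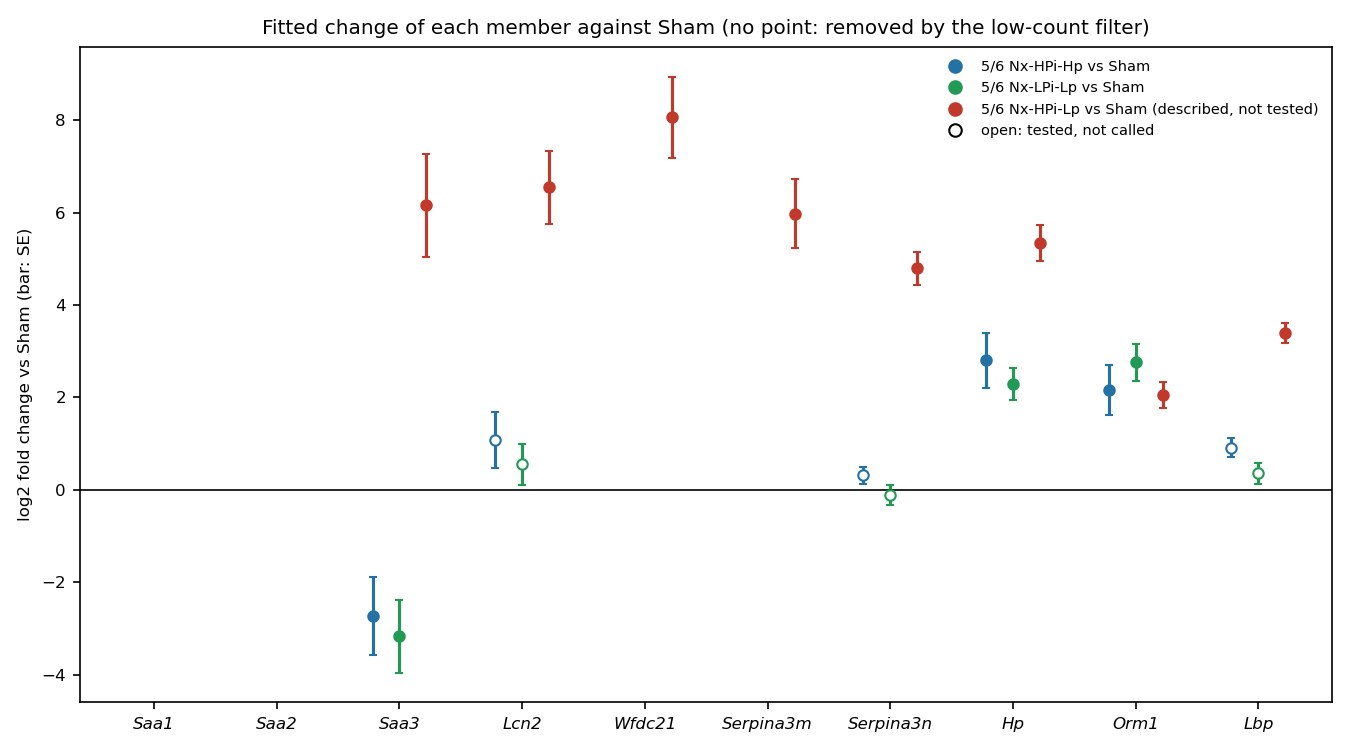
Points give the fitted log2 fold change against Sham with its SE for the members that passed the low-count filter, colored by group, with open points for tested members that were not called. Saa3 is at 6.15 in 5/6 Nx-HPi-Lp mice but at -2.73 and -3.17 in the other nephrectomized groups, and Orm1 is at 2.05, 2.17 and 2.76 in the 3 groups.

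Between the 5/6 Nx-LPi-Lp mice and the 5/6 Nx-HPi-Hp mice no member was called. edgeR called 0% of 15850 genes higher and 0% lower between them, although 1420 had an unadjusted p under 0.05, and DESeq2 called 79 genes and no member. Of the members, 1 had an unadjusted p under 0.05, Lbp. The differences of the 5 tested members were -0.58 for Orm1 (SE 0.55), 0.43 for Serpina3n (SE 0.25), 0.51 for Hp (SE 0.60), 0.53 for Lcn2 (SE 0.61) and 0.57 for Lbp (SE 0.23), with adjusted p from 0.540 to 0.795. At these standard errors a missed threshold does not show that the groups were alike. Saa3 had too few counts in both groups to be tested.

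Levels of other cell types moved with some members. The 10 white adipocyte markers summed to 862 to 2278 CPM in Sham and to 7555 to 15504 in 5/6 Nx-HPi-Lp libraries. They summed to 2269 to 17016 in 5/6 Nx-HPi-Hp and 4520 to 12008 in 5/6 Nx-LPi-Lp libraries, and all 10 were called higher than Sham in both of these groups. In 5/6 Nx-HPi-Lp mice 9 of the 10 were called higher than Sham, beside 15.0% of all genes. Over the 5/6 Nx-HPi-Hp mice this sum was 12253, 5973, 17016 and 2269 CPM, in the order of replicates, and the ranking of the mice was that of Orm1 and Hp. In the other nephrectomized groups the rankings differed, although the mouse with the highest sum was also highest for both genes (5/6 Nx-HPi-Lp replicate 4 and 5/6 Nx-LPi-Lp replicate 1). Adipoq, the adipocyte-specific adiponectin, was at 59.8 CPM in 5/6 Nx-HPi-Hp replicate 4 and at 208 to 562 CPM in the other mice of that group. The part of adipose RNA in the Orm1 and Hp results was not tested.

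The 14 hepatocyte markers gave a different picture. They summed to 10.3 to 32.2 CPM in Sham, 9.07 to 35.0 in 5/6 Nx-HPi-Lp, 8.34 to 141 in 5/6 Nx-HPi-Hp and 7.28 to 22.4 in 5/6 Nx-LPi-Lp libraries, with 11 of the 14 under a mean of 1 CPM in the calcification group. 5/6 Nx-HPi-Lp replicate 2, with the highest Saa3, Saa2, Lcn2 and Serpina3n, had the lowest hepatocyte sum of its group and no count of albumin (Alb). 5/6 Nx-HPi-Hp replicate 3 had the highest hepatocyte sum, with Alb at 84.1 CPM, and 0 counts of Saa1, Saa2 and Saa3, while its Hp (947 CPM), Orm1 (69.1 CPM) and Serpina3m (0.600 CPM) were the highest of its group. The part of hepatocyte RNA in the members' levels was not tested.

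Macrophage markers (12 genes) summed to 977, 3018, 1883 and 1660.3 CPM in the calcification group, above all other libraries (352 to 826 CPM), with the same lowest and highest mouse as Saa3. Neutrophil markers (12 genes) summed to 20.2 to 82.7 CPM in these mice and to 1.62 to 11.1 CPM elsewhere. Of the 6 neutrophil markers tested, 5 were called higher than Sham, beside 15.0% of all genes. These were Cxcr2 (4.78), Retnlg (4.32), Csf3r (3.73), S100a8 (3.73) and S100a9 (3.12). Cxcr2 and Retnlg passed the low-count filter only through the calcification group, so their direction was fixed by it. Ngp was too low to test, at a mean of 0.0497 CPM in the calcification group and 0.544 in Sham. Ly6g, the defining surface marker of mouse neutrophils, was at 0 in the calcification group and also in Sham and 5/6 Nx-LPi-Lp libraries. Lung epithelium markers (9 genes) were at 19.7 to 93.3 CPM in the calcification group and 2.93 to 13.0 elsewhere, with Scgb1a1 at 53.3 CPM in replicate 2 and 28.4 in replicate 4. Pancreas acinar markers (8 genes) reached 169 CPM in replicate 4, from 14.8 in the lowest library of the group. Fibroblast markers (10 genes) summed to 4718 to 20252 CPM in the calcification group and to 1748 to 5092 elsewhere. Replicates 1 and 2 were lowest and highest for the neutrophil and fibroblast sums too, as for macrophage markers and Saa3. Mesothelium markers (8 genes) were at 61.3 to 128 CPM in it and 18.4 to 343 elsewhere, kidney tubule markers (9 genes) at 9.21 to 27.5 and 1.57 to 7.48, and endothelial markers (8 genes) at 916 to 1134 and 775 to 1152. The part of each of these in the members' levels was not tested.

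**Figure D4:**
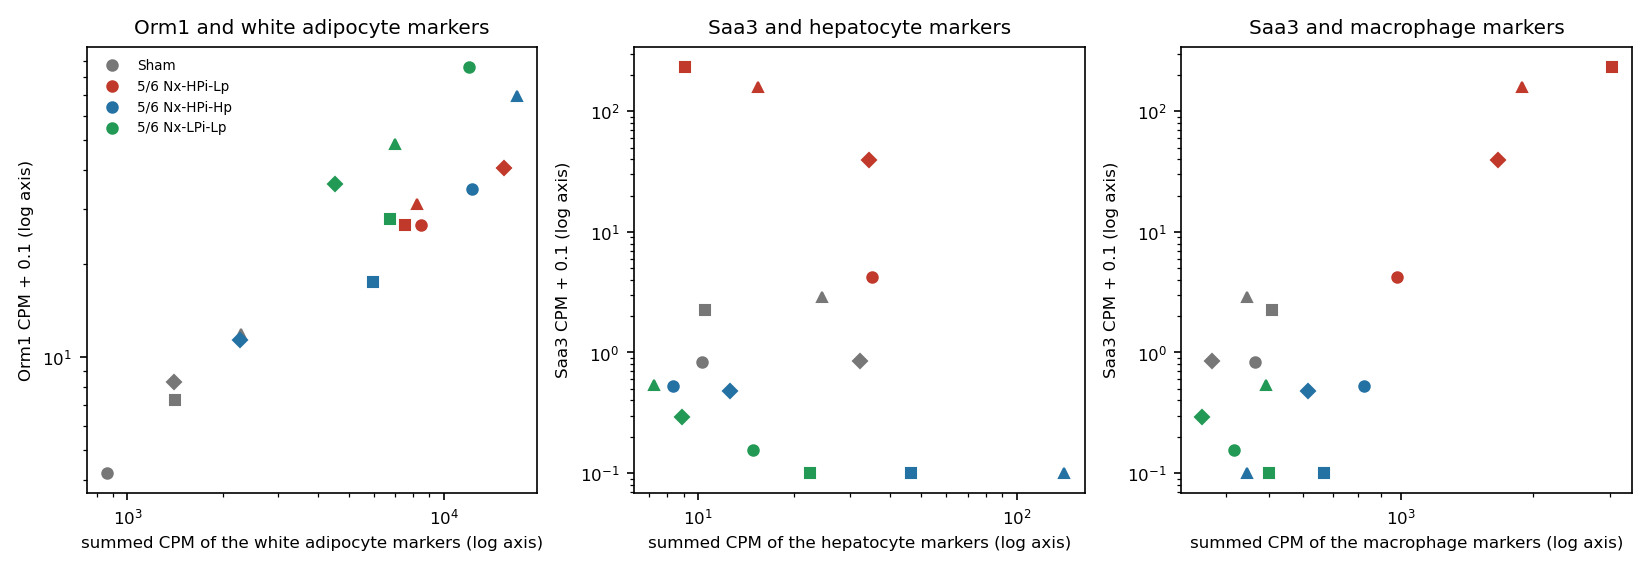
Each point is 1 library, with shapes for replicate numbers as in the plot of members by library, and log axes give the summed CPM of a marker list and the CPM + 0.1 of a member. Orm1 and the white adipocyte sum are both lowest in Sham and in 5/6 Nx-HPi-Hp replicate 4, Saa3 is highest where the hepatocyte sum is 9.07 CPM, and Saa3 and the macrophage sum are both highest in 5/6 Nx-HPi-Lp replicate 2.

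The wider acute-phase system was read from 6 lists of 102 genes that are not members. Relative to Sham, 42 of the 81 genes tested were upregulated in the calcification group and 1 was downregulated, beside the 15.0% and 7.18% of all genes. Some list genes passed the low-count filter only through the calcification group, where they had to be higher. They included A2m, Il1rn, Fgb, Il1b, Osm, Fpr1 and Fpr2, which were too low to test between Sham and either other nephrectomized group. They are part of the counts given here, and nothing is read from their direction. Of 19 other acute-phase proteins tested, 14 rose. The largest changes were those of A2m, the broad protease trap α2-macroglobulin (log2 fold change 8.19, from 0 to 0.0437 CPM in Sham to 5.23 to 10.8), Il1rn, the IL-1 receptor antagonist (6.21), and Lrg1 (4.38). The smallest called were Cp, the copper protein ceruloplasmin (1.31), Hpx, which binds heme (2.14), and Fgb (2.32). The complement proteins C3 (2.67) and C4b (3.34) were among the most abundant, at means of 1394 and 973 CPM. The adjusted p of the 14 ranged up to 0.0372. Fgb is also on the hepatocyte list, and Cd14, which rose by 2.69, is on the lists of acute-phase proteins, of partners and of macrophage markers.

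Of 9 Serpina3 paralogs, 4 could be tested in that comparison. Serpina3c (3.85) and Serpina3g (3.48) rose, with the limit on near copies given above. Serpina3i (7.28) and Serpina3f (5.17), at means of 0.0198 and 0.0444 CPM in Sham, passed the low-count filter only through the calcification group, so their direction was fixed by it. Of 6 negative acute-phase proteins tested, which the liver lowers in inflammation, Rbp4, the retinol carrier, fell by 1.89 on the log2 scale (SE 0.18, adjusted p = 6.2e-05), at 30.0 to 55.0 CPM against 165 to 197 in Sham. Trf, transferrin, rose by 2.12 (adjusted p = 0.000362). The list's name describes the liver, and fat also transcribes Rbp4.

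Of 16 tested genes on the list of inducing cytokines and their receptors, 9 rose, the cytokines Il1b, Osm, Il11, Tnf and Lif and the receptors Il6ra, Tnfrsf1b, Il17ra and Osmr. Il1b had a fitted difference of 5.51 (SE 0.82). It was at 0.119 to 0.393 CPM in Sham and 1.70, 30.0, 13.4 and 10.4 CPM in the calcification group, where replicates 1 and 2 were again lowest and highest. Osm rose by 3.92 and Il11 by 3.52. Il1b and Osm passed the low-count filter only through the calcification group, so their direction was fixed by it. The smallest called were Osmr (1.39), Il17ra (1.46) and Tnfrsf1b (1.69). Il6 itself did not pass the low-count filter, at 0.378, 12.9, 15.0 and 4.19 CPM in the calcification group and at most 0.314 CPM elsewhere.

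Of 20 transcription factors and feedback genes tested, 5 rose, beside 15.0% of all genes, Bcl3 (3.07), Socs3 (2.76), Cebpa (2.25), Rel (1.16) and Pim1 (1.12). Socs3, the feedback inhibitor that STAT3 induces, was at 34.6 to 131 CPM in the calcification group and 10.5 to 13.1 in Sham. Of 17 receptors and partners of the members, 10 rose, led by Hmox1 (3.94), the heme-degrading enzyme, and the formyl peptide receptors Fpr2 (3.78) and Fpr1 (3.74), the first of which binds serum amyloid A. Both formyl peptide receptors passed the low-count filter only through the calcification group. The smallest called were Mmp9 (2.24), Cd36 (2.29) and Scarb1 (2.51). Cebpa, Cd36 and Scarb1 are strongly expressed by adipocytes, and 9 of the 10 adipocyte markers were called higher in these libraries too. Their part in the counts was not tested. Cd163, named after its value was seen as the receptor that takes up haptoglobin with hemoglobin, rose by 2.56 (adjusted p = 0.000102).

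**Figure D5:**
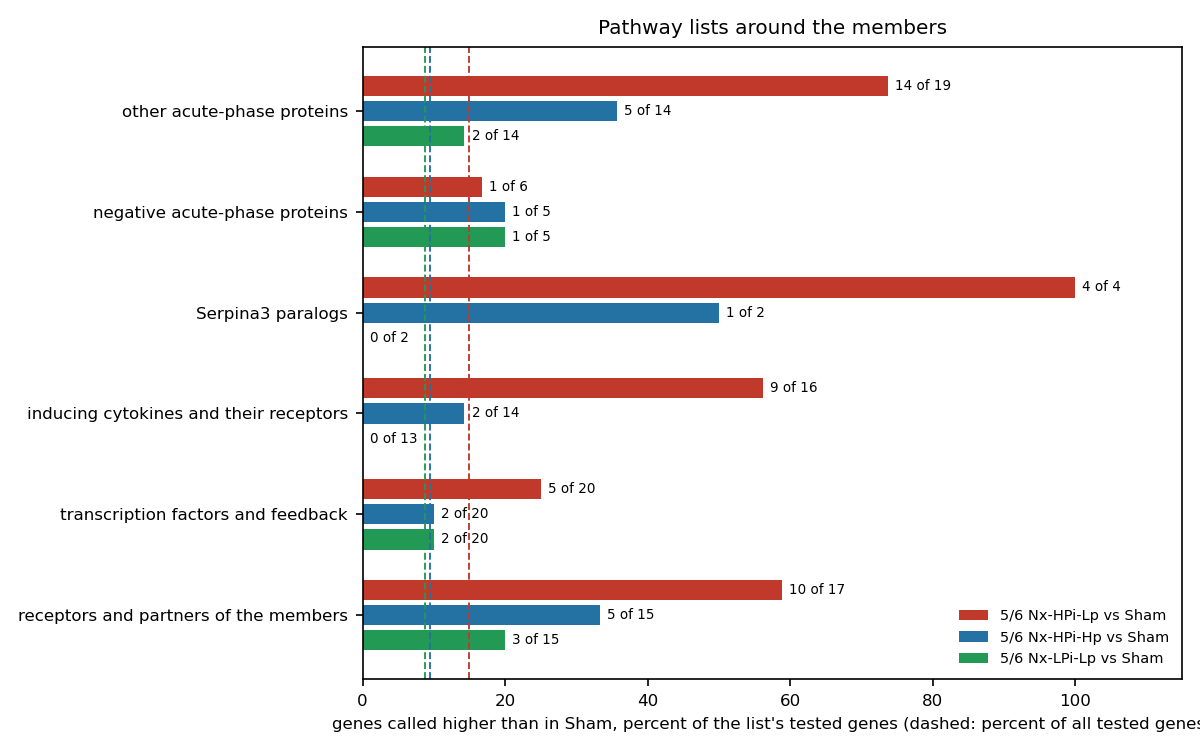
Bars give the percent of each list's tested genes that were called higher than Sham, with the count beside each bar and dashed lines for the percent of all tested genes. Other acute-phase proteins were called for 14 of 19 genes in 5/6 Nx-HPi-Lp, 5 of 14 in 5/6 Nx-HPi-Hp and 2 of 14 in 5/6 Nx-LPi-Lp mice.

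Against 5/6 Nx-HPi-Hp mice, 25 of 82 tested list genes were higher in the calcification group and 2 were lower, Rbp4 (-1.56) and Itih3 (-1.42). Over all genes tested, 5.01% were higher and 3.11% lower there. The highest were A2m (5.70), Il1rn (5.30) and Ptx3 (3.63) among acute-phase proteins, Serpina3i (4.61) and Serpina3g (2.24) among paralogs, Il1b (3.87), Il11 (2.63) and Il1r1 (1.84) among cytokines and receptors, Socs3 (2.36), Bcl3 (1.98) and Rel (1.25) among regulators, and Fpr2 (3.88), Hmox1 (3.30) and Msr1 (2.44) among partners. The replicate block reduced the count of called list genes from 27 to 8, and that of all called genes from 1315 to 371. Against 5/6 Nx-LPi-Lp mice, 39 of 79 were higher and Rbp4 was lower (-1.49), beside 7.90% and 3.98% of all genes. The highest were A2m (4.86), Fgb (4.49) and Il1rn (4.40), Serpina3f (5.57), Serpina3i (4.80) and Serpina3g (3.58), Il1b (5.24), Il11 (3.77) and Osm (3.63), Socs3 (3.01), Bcl3 (2.20) and Cebpd (1.20), and Fpr1 (4.45), Fpr2 (4.03) and Hmox1 (3.51). Stat3 was also called there (1.03, SE 0.15, adjusted p = 0.0035). A2m, Fgb, Il1rn, Serpina3f, Serpina3i, Il1b, Il11, Osm, Fpr1 and Fpr2 were too low to test between 5/6 Nx-LPi-Lp and Sham mice. They passed the low-count filter here through the calcification libraries, and nothing is read from their direction. The same holds against 5/6 Nx-HPi-Hp mice for A2m, Il1rn, Serpina3i, Il1b and Fpr2. The 3 comparisons share the 5/6 Nx-HPi-Lp libraries.

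Relative to Sham, 16 of 69 tested list genes rose in 5/6 Nx-HPi-Hp mice and 2 fell, beside 9.41% and 2.75% of all genes. The acute-phase proteins that rose were Orm3 (2.87), Lrg1 (2.42), Steap4 (1.45), C4b (1.11) and C3 (1.03), while Itih4 fell by 1.21. Serpina3c (3.15), Trf (2.24), Tnf (2.32) and Il6ra (1.03) rose, and Il1rap fell by 1.06. Cebpa (2.71), Bcl3 (1.11), Lrp2 (2.17), Cd36 (2.00), Ager (1.84), Scarb1 (1.71) and Mmp9 (1.11) rose too. Cebpa, Cd36 and Scarb1 are strongly expressed by adipocytes, whose markers rose in the same libraries, and Ager and Lrp2 are also on the lung epithelium and kidney tubule lists. Their part in the counts was not tested. Without Sham replicate 2 the list count was 11 and without 5/6 Nx-HPi-Hp replicate 1 it was 10, from 18. Over all genes these counts were 1091 and 1592, from 1932.

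In 5/6 Nx-LPi-Lp mice 8 of 68 tested list genes rose against Sham, Orm3 (2.74), Cd36 (2.61), Cebpa (2.34), Lrg1 (1.58), Scarb1 (1.45), Ager (1.23), Trf (1.15) and Pim1 (1.07), and Itih4 fell by 1.04, beside 8.79% and 2.08% of all genes. Cd36, Cebpa and Scarb1 are again genes that adipocytes express, and the 10 adipocyte markers were called higher in these libraries. Their part in the count was not tested. Between 5/6 Nx-LPi-Lp and 5/6 Nx-HPi-Hp mice no list gene was called by edgeR, 10 had an unadjusted p under 0.05, and 4 were called by DESeq2.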

How the data were processed

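Per the labels and the methods of the study, the authors aligned cleaned reads to mm10 with HISAT2 v2.0.5 and counted them per gene with featureCounts 1.5.0-p3. Strand and multi-mapping options are not given in the sources used here. The authors deposited whole-number counts without normalization, and FPKM already scaled between libraries. The lowest chi-square per gene within a group was 20.0, so no library was a copy.

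Members and gene lists were chosen with earlier results of these data known. All genes were fitted with the edgeR 4.0.16 quasi-likelihood test (R 4.3.3) after filterByExpr and TMM, on the 8 libraries compared, with Benjamini-Hochberg adjustment. Calls needed an adjusted p not above 0.05 and a change of 1 or more in log2 units. Listed genes were named if called, from each list's up to 3 largest and 3 smallest changes, with all called in comparisons lacking 5/6 Nx-HPi-Lp. Bounds used 3 counts per library, and cover counting error only. Replicates were separate mice. The labels do not say whether mice of equal replicate number were paired. Alternatives were RLE scaling, DESeq2 1.42.0, limma 3.58.1 on log2(FPKM + 1) and log2(FPKM + 0.1), other filters, all 16 libraries, a replicate block, no fold threshold, mitochondrial genes left out, and each library left out. The tests were tested on simulated data. Biopython 1.88 aligned sequences (RefSeq promoters, GENCODE coding exons), and matplotlib 3.10.9 drew plots.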

Additional observations from a re-analysis of the deposited data

Results flagged for a closer look

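Among 34 sets of 4 libraries (1 member in 1 group, with any counts), 4 held a library far from the other three by Dixon's gap ratio at its 95% level. For normally distributed values chance alone flags about 1 in 20 such sets. A set with counts in only 1 library is always flagged, so the number of flags cannot be set against that rate. Hp in 5/6 Nx-HPi-Lp replicate 1 was at 1531 CPM, below the other mice of that group, and the same mouse was lowest for 9 of the 10 members. Serpina3n in 5/6 Nx-LPi-Lp replicate 2 was at 29.9 CPM, above the 16.1 to 17.6 CPM of its group. Saa1 in Sham replicate 1 (0.0771 CPM, 2 counts) and in 5/6 Nx-LPi-Lp replicate 2 (0.251 CPM, 4 counts) was the only library of its group with any count.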

How the results depend on the processing

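Hp kept its call against Sham under every alternative in both comparisons, with an adjusted p of at most 0.0415 in 5/6 Nx-HPi-Hp and 0.0169 in 5/6 Nx-LPi-Lp mice. No called value changed direction. The number of called members ranged from 1 to 3 in 5/6 Nx-HPi-Hp and was 3 in 5/6 Nx-LPi-Lp mice when single libraries were left out. Over those omissions, called list genes numbered 10 to 23 against 18 in 5/6 Nx-HPi-Hp versus Sham. All called genes numbered 1091 to 3161 against 1932 there. With limma on log2(FPKM + 1), 10 list genes and 878 of all genes were called in that comparison. With no fold-change threshold these were 29 and 4990. That setting also gave 20 list genes against 9 in 5/6 Nx-LPi-Lp versus Sham, with 5115 against 1748 over all genes. DESeq2 called 4 list genes against 0 between 5/6 Nx-LPi-Lp and 5/6 Nx-HPi-Hp mice, and 79 against 0 over all genes. The replicate block gave 8 list genes against 27 in 5/6 Nx-HPi-Lp versus 5/6 Nx-HPi-Hp. It also lost the Saa3 call in 5/6 Nx-HPi-Hp mice. Whether equal replicate numbers paired mice is not known. For 5/6 Nx-LPi-Lp with 5/6 Nx-HPi-Hp mice, same-number correlations were over 0.1 in 3 of 4 pairs (highest r = 0.536). There the block called 10 of all genes, against 0 without it. Correlations were over 0.1 in 1 of 4 pairs of 5/6 Nx-HPi-Hp with Sham mice, and in no pair of the remaining comparisons. The members' median log2 fold change in the calcification group was 4.12 (from 5.66) against Sham and 3.66 (from 5.50) against 5/6 Nx-LPi-Lp with limma on log2(FPKM + 1), a scale that understates low genes. A minimum of 10 counts in every library left fewer members and gave 2.58 (from 4.75) against 5/6 Nx-HPi-Hp and 3.10 against 5/6 Nx-LPi-Lp mice. Low counts limit Saa1, Saa2, Serpina3m and Wfdc21 outside the calcification group.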
